A study of Mus musculus with 4 samples.

Results

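Rad21 binding was examined around 6 genes that mark astrocytes, Gfap, Aqp4, Slc1a2, S100b, Aldh1l1 and Sox9. The cells were mouse neural stem cells (NSCs) and the astrocytes (ASTs) made from them. The ChIP-seq data comprised 4 libraries, with 1 Rad21 library and 1 input library without antibody per cell type, so no spread between replicates was known and no test between the cell types was run. NSCs were a clonal, proliferating population derived from embryonic stem cells and were cultured without serum in EGF and FGF. ASTs were their post-mitotic progeny, cultured without serum in BMP and FGF, and laminin is named in the same culture protocol. The labels name no other treatment, and the sources used here give no mouse strain. The files hold no expression values, so the identity of the cells was not checked here against marker genes.

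The members were all Rad21 peaks that start within 500 kb of an approximate position of each gene in the mm9 build. These positions were 102749000 (Gfap) and 112643000 (Sox9) on chromosome 11, 15560000 (Aqp4) on chromosome 18, 102499000 (Slc1a2) on chromosome 2, 75717000 (S100b) on chromosome 10 and 90436000 (Aldh1l1) on chromosome 6. This gave 79 of the 18405 NSC peaks and 56 of the 16157 AST peaks. A distance is written with its sign from the gene position to the peak start, negative toward lower coordinates, and it is not a distance to the start of transcription. Across the 500 kb limit, the closest NSC peaks lay 489 kb (inside) and 510 kb (outside) from the S100b position, with fold enrichments of 4.53 and 31.1, and the closest AST peaks lay 481 kb and 510 kb from it, with 13.3 and 12.9.

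Rad21 is the subunit that closes the cohesin ring, which holds chromatin loops together and is often found where the DNA-binding protein CTCF sits. Such sites can set which enhancers and promoters meet. Of the 6 genes, Gfap encodes an intermediate filament of astrocytes, Aqp4 the water channel of their endfeet, Slc1a2 a transporter that clears glutamate from synapses, S100b a calcium-binding protein, Aldh1l1 an enzyme of folate metabolism and Sox9 a transcription factor of glial fate that is also active in neural stem cells.

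The first question was how many sites surrounded these genes and how many were common to both cell types. Of the 79 NSC peaks, 44 shared at least 1 bp with a peak called in ASTs (55.7%, exact binomial 95% interval 44.1 to 66.9), against 65.5% of all NSC peaks. Of the 56 AST peaks, 45 overlapped an NSC peak (80.4%, 67.6 to 89.8), against 74.7% of all AST peaks. Both intervals include the share of the whole list, and like all intervals given here they cover counting error only. In NSCs this depended on the windows counted. Without the Gfap window, left out after the data had been seen, 27 of 55 NSC peaks were shared (49.1%, 35.4 to 62.9), an interval below 65.5%. In ASTs 27 of 36 were (75%, 57.8 to 87.9). The NSC interval takes its 55 peaks as independent, although 8 of the NSC-only ones lay around Sox9, 3 of these within 1.44 kb. The Aldh1l1 window had a higher NSC share (11 of 14, 78.6%) than the Gfap window (17 of 24, 70.8%) and was not left out in turn. All 6 windows together held 35 NSC-only and 11 AST-only peaks, so that 76.1% of the peaks found in 1 list were NSC-only (61.2 to 87.4), against 60.9% over the genome. This interval also takes neighbouring peaks as independent, and its lower limit lies close to the 60.9%. A peak that is missing from a list was not called there, which does not show that the site was unbound.

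The gene windows differed widely in their number of sites. The Gfap window held 24 NSC and 20 AST peaks. Of the 2649 fixed 1 Mb windows of the genome, 98.8% held fewer NSC peaks and 97.9% fewer AST peaks, the medians being 6 and 5 peaks per window. The fixed windows were not matched for gene content. In the GRCm38 gene table, 29 other protein-coding genes have their lower end within 500 kb of that of Gfap. The Aldh1l1 window followed with 14 peaks in each list. The other windows held more NSC than AST peaks, with 13 and 7 around Slc1a2, 11 and 6 around Aqp4, 11 and 4 around Sox9, and 6 and 5 around S100b.

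**Figure D1:**
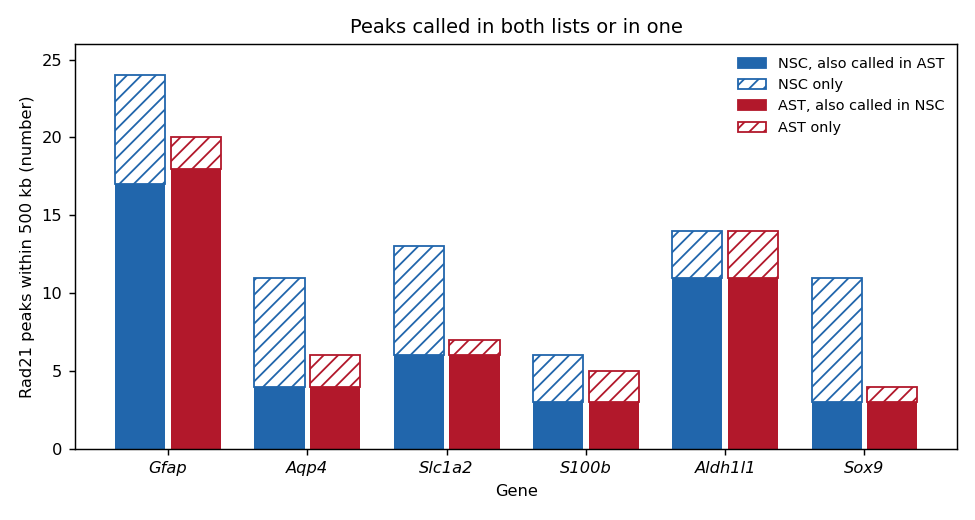
Number of Rad21 peaks that start within 500 kb of each gene position (vertical axis), with NSC peaks in blue and AST peaks in red, and peaks missing from the other list hatched. The Gfap bars are the tallest at 24 and 20 peaks, and the hatched part is largest for NSC peaks around Sox9, 8 of 11.

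Within each list, the shared sites were mostly stronger and wider than those of 1 list, as they were over all peaks. The fold enrichment is the pile-up of fragments at the summit over the peak caller's local background. Its median was 12.7 for shared and 5.43 for NSC-only peaks of the windows in NSCs, and 9.51 for shared and 6.08 for AST-only peaks in ASTs. Over all peaks these medians were 11.2 and 6.13 in NSCs and 8.55 and 6.46 in ASTs. Shared members had a median width of 298 bp in NSCs and 217 bp in ASTs, and members of 1 list 173 and 183 bp. The widths over all peaks were 267 and 214 bp for shared and 176 and 162 bp for peaks of 1 list. Of the 38 NSC members at or above the median fold enrichment of their list (8.66), 31 were found in ASTs (81.6%, 65.7 to 92.3), and of the 41 below it 13 were (31.7%, 18.1 to 48.1). Over all NSC peaks these shares were 88.4% and 42.5%. In ASTs, 27 of the 29 members at or above the list's median of 7.98 were found in NSCs (93.1%, 77.2 to 99.2), and 18 of the 27 below it (66.7%, 46.0 to 83.5). The shares over all AST peaks were 86.0% and 63.4%.

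The counts of fragments behind these values were low and differed between the libraries. The number of fragments at each summit was worked out from the fold enrichment and p that the caller gave. The NSC-only members had 14 to 53 fragments (median 23) and the AST-only members 14 to 29 (median 16). Over all 12098 overlapping pairs of peaks the median ratio of AST to NSC fragments was 0.608. Multiplied by this ratio, 19 of the 35 NSC-only members would have had fewer than 14 fragments in ASTs, the 5th percentile of AST peaks at usual background, and 5 would have had fewer than the lowest such peak, which had 10. The 5th percentile is not a calling limit, since AST peaks were called below it. The count was not made for all NSC-only peaks of the list, so 19 of 35 cannot be called high or low. Divided by the same ratio, 0 of the 11 AST-only members would have had fewer than 16 fragments in NSCs, the 5th percentile there. That count was fixed in advance. Even the lowest AST peak at usual background, with 10 fragments, would exceed 16 once divided by 0.608. The count for AST-only members therefore cannot be compared with the 19 for NSC-only members, and nothing is concluded from it. The ratio of 0.608 was taken only from pairs called in both lists. It holds differences in fold enrichment (median ratio 0.795) as well as in usual background (3.22 fragments in NSCs, 2.63 in ASTs). It is thus not a measure of depth, and the 19 are not peaks shown to be lost to depth. Whether depth accounts for the larger number of NSC-only peaks was not tested.

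**Figure D2:**
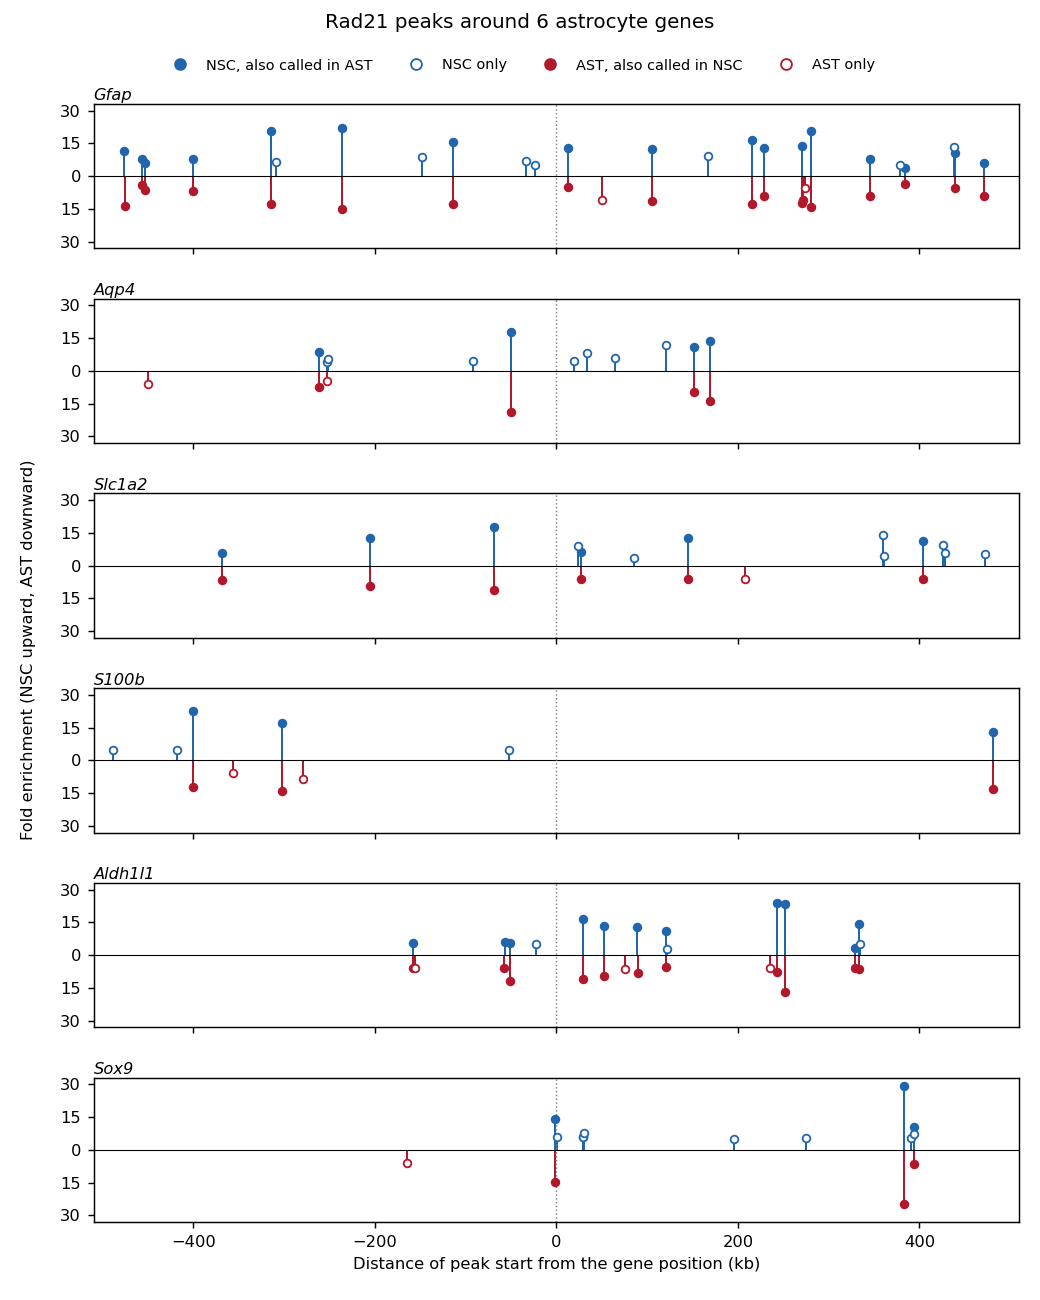
Rad21 peaks around each gene by distance of the peak start from the gene position (kb, horizontal axis), drawn to their fold enrichment, NSC peaks upward in blue and AST peaks downward in red (vertical axis). Filled points are peaks called in both lists and open points peaks called in 1 list. Strong peaks mostly face each other, and the space around the S100b position is empty up to 481 kb on the right in both lists.

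Close to the genes, the share of NSC peaks that were NSC-only differed from gene to gene. Within 100 kb of the 6 positions there were 24 NSC and 12 AST peaks, of which 10 in each list were shared, 14 were NSC-only and 2 AST-only. Around Aqp4 and Sox9, 4 of the 5 near NSC peaks were NSC-only, around Gfap 2 of 3, around Slc1a2 2 of 4 and around S100b the single one, whereas around Aldh1l1 5 of 6 were shared. Over the whole lists 65.5% of NSC and 74.7% of AST peaks were shared. In the remainder of the windows there were 55 NSC and 44 AST peaks. The limit of 100 kb was chosen after the values had been seen.

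Around Gfap, a gene of 9.87 kb in the RefSeq table of the GRCm38 build, sites were dense. In NSCs 17 of 24 were shared (70.8%, 48.9 to 87.4), against 65.5% of all NSC peaks and 74.1% of those on chromosome 11, and in ASTs 18 of 20 (90%, 68.3 to 98.8), against 74.7% and 74.9%. Its closest site was shared. It started at +13.2 kb in NSCs (102762195 to 102762508, 314 bp) with a fold enrichment of 12.7, and at +13.3 kb in ASTs (102762260 to 102762445, 186 bp) with 5.07. The NSC peak rested on 54 fragments and the AST peak on 16. Gfap is read from the minus strand, so that positive distances point to the side from which transcription comes, and the site lay farther from the Gfap position than the gene's length.

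A ratio of fold enrichments within 1 pair of libraries needs a reference, for which the median of AST over NSC fold enrichment over all pairs, 0.795, was used. A relative ratio of 1 thus means that a pair kept to that median. The relative ratio at the +13.2 kb site was 0.5, on the NSC side. With fragments in place of fold enrichment it was 0.487 (counting interval 0.260 to 0.864). The local background there was raised alike, to 1.24 times the usual level in NSCs and 1.20 times in ASTs.

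No peak of either list started between the Gfap position and the +13.2 kb site. The 250 bases before the start of Gfap are shown because its promoter lies on the side of the closest Rad21 site, and those of S100b because its position lies in the longest stretch without sites among the 6 genes. They were taken from RefSeq (GRCm38.p6), where 4 of the 6 genes had an entry, and lie at chr11:102897201-102897450 on the minus strand and chr10:76253586-76253835 on the plus strand, positions of another build than the peaks. Capitals mark CCCTC on either strand, the pentamer for which CTCF is named, which 60.55% of all 32851 promoters of this length hold. It occurred 3 times for Gfap and 0 times for S100b.
Gfap: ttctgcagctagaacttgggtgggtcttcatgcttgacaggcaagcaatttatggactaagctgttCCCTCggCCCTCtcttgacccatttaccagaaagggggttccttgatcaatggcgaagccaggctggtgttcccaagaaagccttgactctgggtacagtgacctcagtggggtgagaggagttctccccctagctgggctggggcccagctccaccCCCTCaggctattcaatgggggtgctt
S100b: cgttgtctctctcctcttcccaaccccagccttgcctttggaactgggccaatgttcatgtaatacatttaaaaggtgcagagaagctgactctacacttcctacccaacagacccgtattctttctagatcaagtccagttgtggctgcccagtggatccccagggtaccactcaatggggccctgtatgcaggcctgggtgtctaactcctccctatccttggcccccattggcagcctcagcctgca

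The longer core AGGNGGC, part of the CTCF motif, was found in neither sequence on either strand and in 25% of all promoters of this length. These matches describe the letters alone. The sequence under the peaks was not analysed here.

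Farther from Gfap, the strongest site of both lists was the same one, at -236 kb, with a fold enrichment of 22 in NSCs and 14.8 in ASTs and a relative ratio of 0.848. The pairs past a relative ratio of 1.5 in either direction were the following. The pair at -476 kb was higher in ASTs (13.7 against 11.4, relative ratio 1.5), the pair at +345 kb likewise (9.13 against 7.63, 1.5), and the pair at +472 kb most of all (8.87 against 6.16, 1.81). The first and second of these sat right at the limit. The pair at +439 kb was higher in NSCs (10.5 against 5.32, relative ratio 0.640). In fragments the relative ratio was 1.52 (0.937 to 2.45), 1.52 (0.834 to 2.75), 2.19 (1.20 to 4.06) and 0.639 (0.318 to 1.21), in this order, so only the interval of the +472 kb pair excludes 1.

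The Gfap window also held the strongest AST-only peak of the 6 genes. It lay at +50.6 kb (102799611 to 102799831, 221 bp), with a fold enrichment of 11.03 and 29 fragments, and the nearest NSC peak started 37.4 kb away. The other AST-only peak, at +274 kb, had a fold enrichment of 5.32. Of the 7 NSC-only peaks, 3 reached the median of their list. These had fold enrichments of 13.2 at +438 kb, 9.39 at +167 kb and 8.80 at -148 kb. The first of them started 1.72 kb from an AST peak, that of the +439 kb pair. The others started 47.9 and 34.7 kb from the nearest AST peak. The remaining 4 had fold enrichments of 4.99 to 6.84.

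Around Aqp4, which neighbours Kctd1 and Chst9 in the gene table, 4 of the 11 NSC peaks were shared (36.4%, 10.9 to 69.2), an interval that includes the 65.5% of the whole NSC list. In ASTs 4 of 6 were (66.7%, 22.3 to 95.7). The strongest site of both lists was the shared one at -49.8 kb, with a fold enrichment of 17.6 in NSCs (15510228 to 15510578) and 18.6 in ASTs (15510238 to 15510593), from 60 and 49 fragments. It was also the AST peak nearest to the gene position. The next AST peak on the other side started at +151 kb, so that the position lay in a stretch of 201 kb without an AST peak.

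In NSCs that stretch held 4 peaks, all of them NSC-only. The peak nearest to the Aqp4 position, at +19.7 kb (15579724 to 15579883), had a fold enrichment of 4.4 and 15 fragments. The peaks at +33.5 kb and +64.8 kb had fold enrichments of 7.99 and 5.87. Only the peak at +121 kb (15680739 to 15681044, 306 bp) exceeded the list's median, with 12.0 and 41 fragments, and the nearest AST peak started 30.6 kb from it. The 3 other NSC-only peaks, at -253, -251 and -92 kb, had fold enrichments of 4.11, 5.43 and 4.4. The NSC peak at -253 kb started only 0.244 kb from an AST-only peak without overlapping it, so that the site counted as a peak of 1 list in both cell types.

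None of the 4 shared pairs around Aqp4 passed the 1.5-fold limit, with relative ratios of 1.1 to 1.33, all on the AST side of the genome-wide median. In fragments the pair at +170 kb stood at 1.57 (1.02 to 2.43), where the background was 1.20 times the usual level in ASTs and at the usual level in NSCs.

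Around Slc1a2, between Pamr1 and Cd44, the NSC list had 6 shared peaks of 13 (46.2%, 19.2 to 74.9), whereas 6 of the 7 AST peaks were shared (85.7%, 42.1 to 99.6). The strongest site of both lists lay at -68.8 kb in NSCs (102430184 to 102430546, 363 bp) and -68.7 kb in ASTs (102430284 to 102430503, 220 bp), with fold enrichments of 17.9 and 11.2. The NSC peak nearest to the gene position was NSC-only, at +23.4 kb (102522430 to 102522682), with a fold enrichment of 9.09 from 31 fragments, and it started 3.42 kb from the nearest AST peak. That AST peak, at +26.8 kb, had a fold enrichment of 6.08 and overlapped an NSC peak with 6.37.

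The +26.8 kb pair shows how far the background enters a fold enrichment. Its relative ratio was 1.20, but the NSC peak had 54 fragments over a background 2.49 times the usual level and the AST peak 16 fragments over the usual background. In fragments the relative ratio was 0.487 (0.260 to 0.864), on the other side of 1. Slc1a2 spans 133 kb in the GRCm38 table, more than the distance from the position to this site or to the NSC-only one beside it.

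The pair at +145 kb was the only one around Slc1a2 past the limit by fold enrichment, with 12.6 in NSCs and 6.03 in ASTs (relative ratio 0.601). In fragments it was 0.688 (0.374 to 1.22). Of the 7 NSC-only peaks, 3 reached the median of their list, the one at +23.4 kb, another at +360 kb (102859321 to 102859600) with 14.1 from 48 fragments, and another at +426 kb with 9.51. The +360 kb peak had the highest fold enrichment of the NSC-only peaks of the 6 windows, and the nearest AST peak started 43.9 kb away. The single AST-only peak, at +207 kb, had a fold enrichment of 6.12 over a background 1.80 times the usual level.

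Around S100b, between Prmt2 and Dip2a, sites were as many as in the median window of the genome, 6 in NSCs and 5 in ASTs, and 27 other protein-coding genes have their lower end within 500 kb of its own in the GRCm38 table. Of the 6 NSC peaks 3 were shared (50%, 11.8 to 88.2), and of the 5 AST peaks 3 (60%, 14.7 to 94.7). The S100b position lay in a stretch of 533 kb without an NSC peak start, from -52.1 to +481 kb, which was longer than 95.7% of the distances between adjacent NSC peaks. In ASTs the stretch was 760 kb, from -279 to +481 kb, longer than 96.8% of them.

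The NSC peak at -52.1 kb (75664874 to 75665016) was the nearest to S100b and was weak and NSC-only, with a fold enrichment of 4.69 from 16 fragments, and the nearest AST peak started 227 kb away. The nearest AST peak, at -279 kb (75438086 to 75438230, 145 bp), was AST-only with a fold enrichment of 8.75 from 23 fragments, and it was, with the one at +50.6 kb of Gfap, the other AST-only member that reached the median of their list. The 3 shared sites were strong. The site at -401 kb was the strongest NSC peak (22.6 in NSCs, 12.0 in ASTs, relative ratio 0.670) and the site at -303 kb the strongest AST peak (17.0 and 13.9, 1.03), and the site at +481 kb had 13.2 and 13.3 (1.27). None passed the limit of 1.5.

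Around Aldh1l1, between Klf15 and Slc41a3, sites were dense and 11 of 14 peaks were shared in each list (78.6%, 49.2 to 95.3), an interval that includes the 65.5% and 74.7% of the whole lists. The NSC peak nearest to the gene position was an NSC-only peak at -22.5 kb (90413461 to 90413614) with a fold enrichment of 5.28 from 18 fragments. The nearest AST peak, at +29.0 kb (90465004 to 90465329, 326 bp), was shared, with a fold enrichment of 11.2 against 16.7 in NSCs. Above the position, shared sites followed at +29.0, +52.0, +89.3 and +121 kb in NSCs, with fold enrichments of 16.7, 13.5, 12.9 and 11.2. The AST values at the same sites were 11.2, 9.51, 8.36 and 5.32. In NSCs fold enrichment was highest at the neighbours at +243 and +251 kb, both shared, with 23.8 and 23.2. In ASTs the highest was the one at +251 kb with 16.7, while the one at +243 kb had 7.76, less than at -50.8, +29.0, +52.0 and +89.3 kb.

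Of the 11 pairs around Aldh1l1, 5 passed the 1.5-fold limit, but only 2 of them did so by fragments as well. Those were the pairs at +121 kb (relative ratio 0.6, in fragments 0.606, 0.303 to 1.14) and +333 kb (0.577, in fragments 0.582, 0.314 to 1.03), both higher in NSCs and both with an interval that includes 1. The pair at +243 kb had a relative ratio of 0.411 by fold enrichment and 0.994 (0.683 to 1.44) by fragments, the AST background there being 2.40 times the usual level. The pairs at -50.8 and +329 kb were higher in ASTs by fold enrichment (2.75 and 2.11) and moved to 1.27 (0.770 to 2.09) and 1.37 (0.643 to 2.88) by fragments, with NSC backgrounds of 2.18 and 1.55 times the usual level. The 3 NSC-only peaks had fold enrichments of 2.62 to 5.28 and the 3 AST-only peaks 5.70 to 6.55, all below the medians of their lists.

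Around Sox9, which lies between the predicted gene Gm11677 and Slc39a11 with 1 protein-coding gene within 500 kb in the GRCm38 table, the smallest share of NSC peaks was found in ASTs. Of the 11 NSC peaks, 3 were found in ASTs (27.3%, 6.02 to 61.0), an interval below the 65.5% of the whole NSC list and the 74.1% of NSC peaks on chromosome 11. That interval takes the 11 peaks as independent, although 3 of the NSC-only ones lay within 1.44 kb. It also belongs to the lowest of 6 windows, singled out after the values had been seen. Of the 4 AST peaks, 3 were found in NSCs (75%, 19.4 to 99.4). The 8 NSC-only peaks were all weak, with fold enrichments of 4.89 to 7.92, below the list's median, and 18 to 30 fragments. Of all NSC peaks below that median, 42.5% were found in ASTs. When peaks with a −log10 q under 10 were dropped from both lists, 4 NSC peaks were left around Sox9, of which 50% were found in ASTs, against 56.9% of all NSC peaks at this threshold.

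The position of Sox9 was the only one of the 6 with Rad21 peaks of both lists within 2 kb. The shared site at -1.84 kb in NSCs (112641159 to 112641503, 345 bp) and -1.81 kb in ASTs (112641191 to 112641425, 235 bp) had fold enrichments of 14.1 and 14.8 from 48 and 39 fragments. Its relative ratio was 1.32, and 1.34 in fragments (0.852 to 2.08). At +0.480 kb an NSC-only peak (112643480 to 112643738, 259 bp) had a fold enrichment of 5.87 from 20 fragments, 2.29 kb from the AST peak.

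Beyond it, NSCs had a run of 3 NSC-only peaks within 1.44 kb, at +28.8, +29.4 and +29.995 kb, with fold enrichments of 5.87, 5.66 and 7.92. The background at the middle one was 1.55 times the usual level. Single NSC-only peaks followed at +195 and +275 kb (4.89 and 5.23). In ASTs no peak started between -1.81 and +383 kb, a stretch of 385 kb that exceeds 91.8% of the distances between adjacent AST peaks.

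The site that ends this stretch was the strongest of all 6 windows in both lists. It spanned 113026319 to 113026792 in NSCs (474 bp) and 113026308 to 113026800 in ASTs (493 bp), at +383 kb, with fold enrichments of 29.3 and 24.7, which rank above 98.7% of NSC and 99.1% of AST peaks. It rested on 100 and 65 fragments, and its relative ratio was 1.06 (in fragments 1.07, 0.770 to 1.47). In NSCs it opened a second run of 4 peaks within 11.5 kb, which ended with a shared site at +395 kb (10.4 in NSCs, 6.46 in ASTs). The single AST-only peak lay at -165 kb (6.08), the only peak of either list below the -1.84 kb site.

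Over the 45 pairs of the 6 windows, the median fold enrichment was 12.7 in NSCs and 9.51 in ASTs, and the AST value was the higher one in 14 pairs, against 29.2% of all pairs. Relative to the median ratio over the genome, 0.795, the pairs had a median of 1.01 and ranged from 0.411 to 2.75, while the quartiles over all pairs were 0.755 and 1.33. In ASTs 5 of the 45 pairs were higher by at least 1.5 times, against 16.8% of all pairs, and in NSCs 6 of the 45, against 16.6%. Of these 11 pairs, 7 passed the limit in the same direction by fragments. In 4 of the 45 pairs the counting interval of the fragment ratio excluded 1, at +13.2 and +472 kb of Gfap, +170 kb of Aqp4 and +26.8 kb of Slc1a2. With 45 intervals of 95%, some would exclude 1 by counting error alone.

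**Figure D3:**
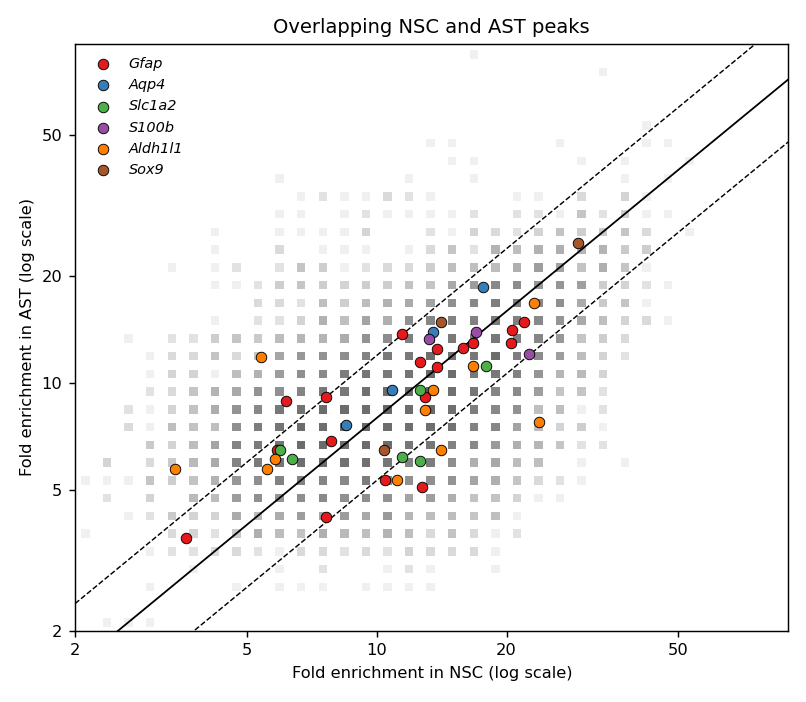
Fold enrichment of overlapping peaks in NSCs (horizontal axis, log scale) and ASTs (vertical axis, log scale), with the 45 pairs of the 6 windows as coloured points and all 12098 pairs in grey, darker where more pairs fall. The solid line is the median ratio over all pairs, 0.795, and the dashed lines lie 1.5 times above and below it. The coloured points scatter along the solid line, and the lone orange points far above and far below it are the Aldh1l1 pairs at -50.8 and +243 kb.

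The shared peaks kept their place closely and were mostly narrower in ASTs. The summits of a pair lay a median of 20 bp apart, against 19 bp over all pairs. The AST peak was the narrower one in 32 of the 45 pairs, and in 73.3% of all pairs. The widest member was the NSC peak at +271 kb of Gfap, 762 bp, which overlapped 2 AST peaks of 257 and 230 bp.

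Taken over the 6 windows, NSC sites lay closer together than those of the whole list, and AST sites did so only before a stricter threshold. The median distance between starts of adjacent peaks was 34.6 kb in NSCs over 73 distances, against 58.9 kb over the whole list, and 53.4 kb in ASTs over 50, against 68.1 kb. When peaks with a −log10 q under 5 were dropped, the NSC medians were 41.7 kb in the windows and 70.9 kb over the list, and the AST medians 80.7 and 80.8 kb. Distances that reach across the edge of a window were not counted, which leaves out long ones. Under 10 kb were 20 of the 73 NSC distances (27.4%, against 15.8% of all) and 10 of the 50 AST distances (20%, against 13.4%). The shortest were 0.572 kb, in the run above Sox9, and 0.508 kb, between the AST peaks under the wide NSC peak of Gfap.

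The genes differed in spacing as they did in number. The NSC medians were 5.21 kb around Sox9, 28.3 kb around Aldh1l1, 30.9 kb around Aqp4, 36.5 kb around Gfap, 51.6 kb around Slc1a2 and 98.1 kb around S100b. In ASTs they were 23.1 kb around Aldh1l1, 41.6 kb around Gfap, 49.1 kb around S100b, 128 kb around Slc1a2, 163 kb around Sox9 and 189 kb around Aqp4, the last 3 of these wider than the list's 68.1 kb. The order thus differed between the lists, and Sox9 moved from the closest spacing to the last but one. The medians of S100b, Sox9, Aqp4 and Slc1a2 in ASTs rest on 4, 3, 5 and 6 distances. That of Sox9 in NSCs rests on 10 distances, 6 of them under 10 kb, and only 4 of its 11 NSC peaks were left at a −log10 q of 10.

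**Figure D4:**
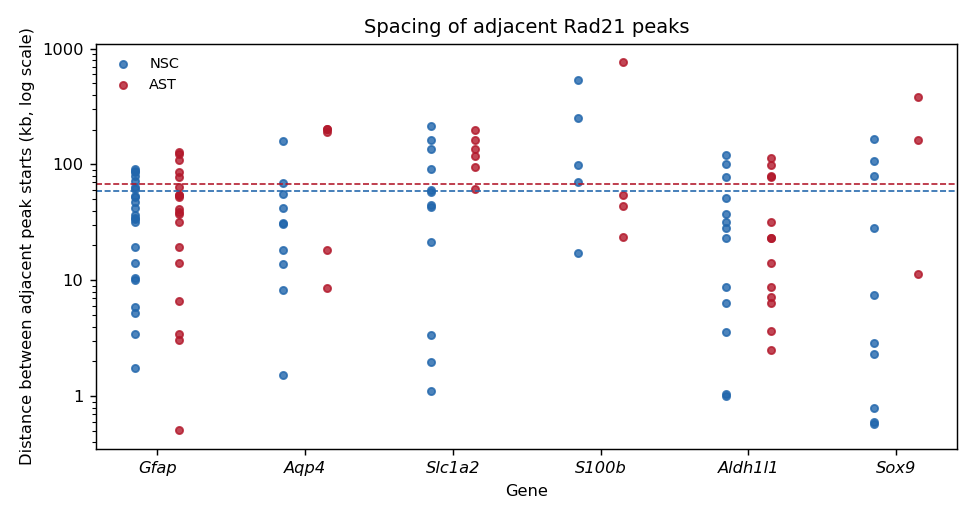
Distance between the starts of adjacent Rad21 peaks within each window (kb, vertical axis, log scale), each point a distance, with NSC in blue and AST in red. Dashed lines are the medians over the whole lists, 58.9 kb in NSCs and 68.1 kb in ASTs. The NSC points of Sox9 reach down to 0.572 kb, and the highest point is the stretch of 760 kb around S100b in ASTs.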

How the data were processed

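The authors deposited 1 list of Rad21 peaks per cell type, each from 1 library. Alignment with Bowtie 1.0.0, peak calling with MACS2 2.0.9 and the build mm9 are listed in the submitters' processing notes, with no settings. Fold enrichment, as deposited, is a ratio of fragment pile-up to local background, and the deposited p and q are −log10 values (lowest −log10 q 1.02 in NSCs, 1.03 in ASTs). The total depth is unknown.

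Members came from the gene positions of the rule, which, like the lists of results, was chosen with earlier results of these data known. No mm9 annotation was used here. The Gfap and Sox9 positions lay 9894 kb apart, and the lower ends of these genes 9895 kb apart in the GRCm38 table, from which only names, order, gene lengths, counts of nearby genes and promoter sequences were taken. This check covers only the distance between Gfap and Sox9, and an equal shift of both would pass it. The approximate positions of Aqp4, Slc1a2, S100b and Aldh1l1 had no such check, so distances from them carry that uncertainty. Positions are counted from 1.

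Fragments at a summit were the whole number that, over the background implied by the fold enrichment, gave the deposited −log10 p as a Poisson tail, with 1 scale factor per list (0.944 in NSCs, 1 in ASTs). The fit was within 0.05 for 99.7% of NSC and 99.99% of AST peaks and for all members. On simulated lists it recovered the exact number for 99.8% of 17609 NSC and 100% of 15602 AST peaks. Those lists were drawn from the same Poisson model with the scale factor given. They therefore check the calculation only, and not whether the caller's values follow this model, which the sources do not state. The usual background, its median at fold enrichments over 8, came to 3.22 fragments for NSCs and 2.63 for ASTs. Relative ratios were AST over NSC values of overlapping peaks divided by the median over all pairs, with exact conditional intervals for fragments. PCR copies are not independent molecules, so intervals cover counting error only.

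Per gene and list, the peak nearest to the position, the strongest peak, peaks of 1 list at or above their list's median and pairs past 1.5-fold were named, with the other peaks in counts, ranges or, for runs, by value after these had been seen. Alternatives were q thresholds, list lengths, overlap rules, window size, centring and distance measure. Scripts ran in Python 3.11.15 with scipy 1.17.1, pandas 2.3.3, numpy 2.4.6 and matplotlib 3.10.9.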

Additional observations from a re-analysis of the deposited data

How the results depend on the processing

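Of 170 values recomputed under alternative settings, 146 kept within their counting interval or, for counts, medians and densities, within 1.5 times of the value given, and 24 moved beyond it, 20 of them for single genes. Of the 170, 131 were for single genes, whose shares had wide intervals. At a −log10 q of at least 10 the Slc1a2 share went from 46.2 to 22.2% in NSCs and from 85.7 to 50% in ASTs. Both still counted as kept, so for single genes the tally says little about stability. With peaks under a −log10 q of 10 dropped, the density over the 6 windows was 8 in place of 13.2 NSC peaks per Mb and 5.5 in place of 9.33 AST peaks per Mb. With those under 5 dropped, the median AST distance was 80.7 kb in place of 53.4, against 80.8 kb over the whole list. With the median ratio of each gene's own chromosome as reference, 3 pairs in place of 5 were at least 1.5-fold higher in ASTs. Under the overlap rules, thresholds, list lengths and window tried, 53.2 to 65.6% of NSC members and 75 to 86.4% of AST members were found in the other list. With lists of equal length the shares were 65.6% and 76.8%, against 72.1% and 72.3% over the genome. Without the Gfap window, an alternative chosen after seeing the data, they were 49.1% (35.4 to 62.9) and 75%. The share around Sox9 in NSCs was 16.7 to 50% over the alternatives. Single pairs rested on 11 to 100 fragments per library, which limits what their ratios can show. No paired analysis was possible because the result comes from no test and each cell type has 1 Rad21 library.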
